A study of Homo sapiens with 48 samples.

Results

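The 6 genes described here were EFNA1, EFNA2, EFNA3, EFNA4 and EFNA5, which encode the ephrin A ligands, and EPHA2, which encodes one of their receptors. They were chosen by name, out of 20007 protein-coding genes, and a peak was assigned to a gene when it overlapped the gene body or the 50 kb on either side. Ephrin A ligands are held on the cell surface by a lipid anchor and bind EphA receptor tyrosine kinases on neighbouring cells, so that signalling depends on cell contact. Binding of the ligand activates the receptor kinase, recruits guanine nucleotide exchange factors, phosphatases and adaptors, and leads to repulsion or loss of the receptor from the membrane, and it can also signal back into the ligand-bearing cell. EPHA2 is abundant in many carcinomas, including pancreatic ductal adenocarcinoma, where it also signals without ligand in migrating cells.

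Binding was measured by ChIP-seq in L3.6pl, a cell line of human pancreatic ductal adenocarcinoma. RELA, the subunit that carries canonical NF-κB signalling, RELB, the subunit of the noncanonical pathway, and H3K27ac, a histone mark of active promoters and enhancers, were each profiled after vehicle (PBS), after TNFα for 30 min or 6 h, and after TWEAK for 30 min or 6 h, and the AP-1 subunit FOSL1 was profiled after vehicle. All 16 conditions used the same unmodified line with 3 replicates each (48 samples), and each condition has 1 list of peaks, so no value below has a replicate error and no difference was tested. The peak names of the RELA list at 30 min of TNFα name a first replicate, so how many replicates that list holds is not settled, and all counts from it share this limit. The lists held from 2414 to 11266 regions for RELA and RELB, 58864 for FOSL1 and from 53895 to 61194 for H3K27ac on chromosomes 1 to 22, X and Y, and the read depth behind them is unknown. In vehicle, H3K27ac lay within 1 kb of the start sites of 6 of 6 epithelial marker genes (KRT7, KRT8, KRT18, KRT19, EPCAM and CDH1) and of 1 of 8 marker genes of immune, endothelial and stromal cells, the exception being COL1A1.

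The ligand genes EFNA4, EFNA3 and EFNA1 sit side by side on chromosome 1. EFNA4 (chr1:155063737-155069553), EFNA3 (chr1:155078837-155087538) and EFNA1 (chr1:155127876-155134899), all on the plus strand, span 71.2 kb, so their windows overlap and 1 peak can be counted for several of them. EFNA2 lies at chr19:1285873-1301431 on the plus strand, EFNA5 at chr5:107376894-107670937 on the minus strand, and EPHA2 at chr1:16124337-16156069 on the minus strand. EFNA5 is the long gene of the group, with a window of 394 kb against 106 to 132 kb for the others and a median of 127 kb over all genes.

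The windows of the 6 genes held 13 distinct sites with RELA or RELB, and all 13 were in the RELA list of 30 min of TNFα. The sequences below are those of the strongest RELA peak of each window that held one, with 100 bases on either side of the summit, followed by the one site that RELB shared. EFNA1 and EFNA3 have the same strongest site, which is printed once. Capitals mark matches to the 10-base NF-κB consensus or to the 9-base word GGAATTTCC on either strand.

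EFNA1 and EFNA3 site, upstream of EFNA1, hg38 chr1:155124686-155124886, plus strand: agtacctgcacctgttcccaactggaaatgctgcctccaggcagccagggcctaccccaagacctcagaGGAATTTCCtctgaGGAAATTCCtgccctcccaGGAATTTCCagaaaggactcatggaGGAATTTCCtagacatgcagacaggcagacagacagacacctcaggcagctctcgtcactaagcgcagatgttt

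EFNA2 window site, in an intron of MIDN, hg38 chr19:1252827-1253027, plus strand: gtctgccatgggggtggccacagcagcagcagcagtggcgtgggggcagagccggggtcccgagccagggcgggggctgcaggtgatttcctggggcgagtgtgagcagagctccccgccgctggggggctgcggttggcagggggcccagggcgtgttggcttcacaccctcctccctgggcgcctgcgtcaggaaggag

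EFNA5 intronic site, hg38 chr5:107388524-107388724, plus strand: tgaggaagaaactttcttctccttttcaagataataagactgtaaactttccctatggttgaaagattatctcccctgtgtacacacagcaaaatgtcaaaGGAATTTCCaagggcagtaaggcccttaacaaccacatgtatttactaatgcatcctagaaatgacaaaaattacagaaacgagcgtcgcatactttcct

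EPHA2 upstream site, hg38 chr1:16164522-16164722, plus strand: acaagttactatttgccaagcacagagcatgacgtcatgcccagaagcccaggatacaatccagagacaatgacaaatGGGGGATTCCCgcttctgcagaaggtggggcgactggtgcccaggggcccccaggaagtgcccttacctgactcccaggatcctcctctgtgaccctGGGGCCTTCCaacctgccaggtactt

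EPHA2 far upstream site, shared with RELB, hg38 chr1:16182098-16182298, plus strand: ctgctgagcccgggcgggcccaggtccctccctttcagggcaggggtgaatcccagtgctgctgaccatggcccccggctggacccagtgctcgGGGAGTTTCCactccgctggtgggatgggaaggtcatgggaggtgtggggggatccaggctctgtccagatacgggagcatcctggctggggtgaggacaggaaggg

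The word GGAATTTCC was chosen after the sequences were read, among the 9-base words met most often in the EFNA1 site. GAAATTCCT was met there as often, and GGAATTTCC was kept for its higher count over all the sites (6 against 5). GGAATTTCC stood in the EFNA1 site 4 times within 31 bp of the summit. The NF-κB consensus, which asks for 1 more G at its start, was not met there. The same word was present once in the EFNA5 intronic site, 5 bp from the summit, and once in an intronic site of EPHA2, where it lay inside a match to the consensus. Among the 8308 RELA regions of 30 min of TNFα outside tandem repeats, 13.7% held the word within the same distance of the summit and 1 region, the EFNA1 site itself, held 4 copies. Since the word was picked from that site, the count is a description of it. The matches at EFNA5 and EPHA2 entered the choice too and are likewise a description. The word was present in 0.472% of 27305 promoters of the RefSeq table.

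Of the 13 sites, 4 held the NF-κB consensus, against 49.6% of all these regions. Either the consensus or the word was in 6. The EFNA1 site was bound to be among these, since the word was picked from it. The matches at EFNA5 and EPHA2 also counted in picking the word, and no such share was computed over those regions. The 2 consensus matches of the strong EPHA2 upstream site that overlap each other lay 17 and 18 bp from the summit, and that of the far upstream site lay 2 bp from it. The AP-1 word TGANTCA was in 1 of the 13 sites (19% of the same regions outside tandem repeats), the site between EFNA1 and SLC50A1. The TEAD word GGAATG was in 3 of 13 sites (15.3% of the same regions). None of the 3 motifs nor the word was met in the strongest site of the EFNA2 window, which says only that these letters were absent there.

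RELA was absent from all 6 windows in vehicle and appeared at 5 of 6 genes after 30 min of TNFα. EPHA2 held 6 RELA peaks, EFNA1 and EFNA3 held the same 3, EFNA2 and EFNA5 held 2 each, and EFNA4 held 0. For comparison, 5.05% of all protein-coding genes had a RELA peak in their window in vehicle and 48.1% had one after 30 min of TNFα. Having a peak at 30 min was therefore common. The number of peaks at EPHA2 was not: 0.91% of genes had 6 or more, whereas 9.25% had the 3 or more of EFNA1 and 21.6% had the 2 or more of EFNA2 and EFNA5. By strength, 1.35% of genes had a best peak at least as high as that of EFNA1, 7.69% one as high as that of EPHA2, 12.7% one as high as that of EFNA5 and 23% one as high as that of EFNA2.

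**Figure D1:**
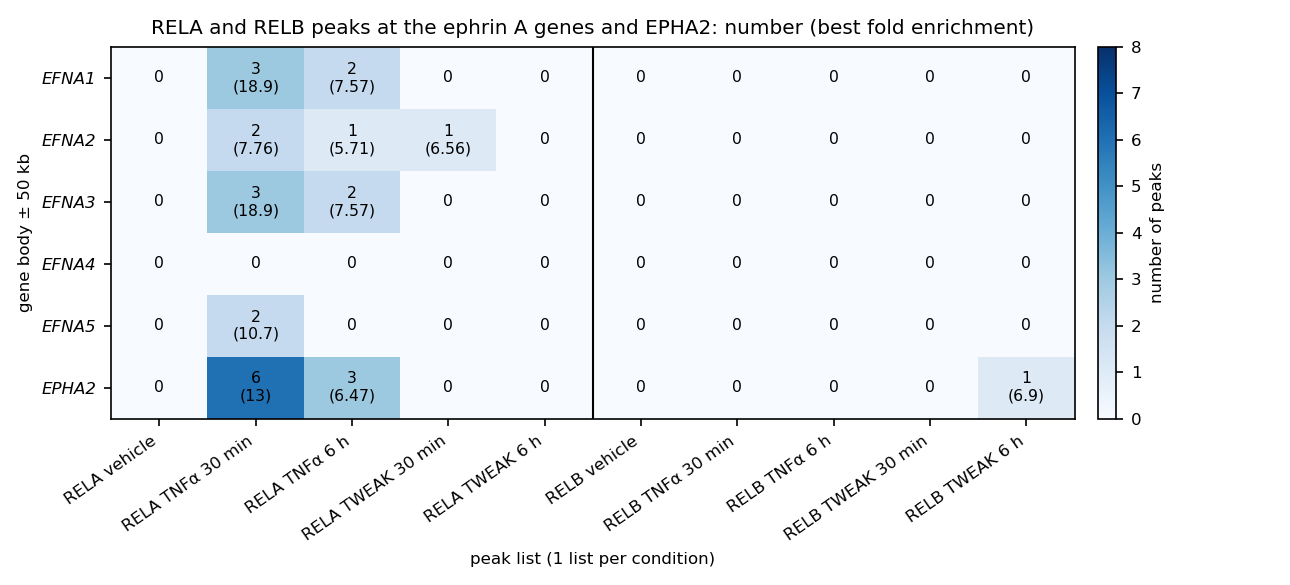
Number of RELA and RELB peaks in the gene body plus 50 kb of each gene (rows) in each of the 10 peak lists (columns), with the best fold enrichment in brackets and shading for the number of peaks. Peaks fill the RELA columns of TNFα at 30 min (2 to 6 at 5 genes) and 6 h (1 to 3 at 4 genes), and the remaining lists hold 1 peak at EFNA2 (RELA, TWEAK 30 min) and 1 at EPHA2 (RELB, TWEAK 6 h). The peaks of EFNA1 and EFNA3 are the same ones.

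**Figure D2:**
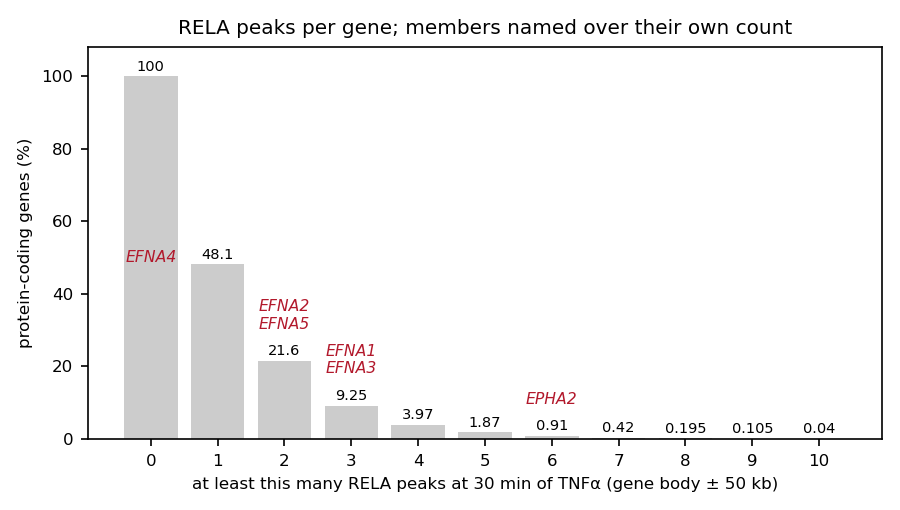
Percentage of the protein-coding genes (vertical axis) whose window held at least the given number of RELA peaks at 30 min of TNFα (horizontal axis), with each gene of the group named at its own count. EPHA2 stands at 6 peaks, which 0.91% of genes reached, and EFNA4 at 0.

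After 6 h of TNFα, RELA was listed at EFNA1 and EFNA3 (the same 2 peaks), at EFNA2 (1 peak) and at EPHA2 (3 peaks), and was no longer listed at EFNA5, with 26.8% of all genes having a peak in that list. After 30 min of TWEAK, only the EFNA2 window held a RELA peak (7.58% of all genes did), and after 6 h of TWEAK no window held one (5.11% of all genes did). RELB was listed at EPHA2 after 6 h of TWEAK, with 1 peak, where 13.6% of all genes had one. The other 4 RELB lists held no peak at any of the 6 genes, and in them 3.06% (vehicle), 1.58% (TNFα, 30 min), 3.87% (TNFα, 6 h) and 1.39% (TWEAK, 30 min) of all genes had a peak.

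At the level of sites, 13 of 13 RELA sites of 30 min of TNFα were absent from the vehicle list, and 95.7% of the RELA regions outside tandem repeats were too. None of the 13 lay in a tandem repeat, where 26.3% of all 11266 regions lay. Of the sites, 6 stayed in the RELA list of 6 h of TNFα (background 35.3%), 1 was in the RELA list of 30 min of TWEAK (7.76%) and 1 in the RELB list of 6 h of TWEAK (15.7%). The remaining 7 sites were in no other RELA or RELB list. Of the 13, 8 overlapped a FOSL1 peak of vehicle by at least 1 bp (48.8%), 10 had H3K27ac within 500 bp of the summit in vehicle (63.2%), and 3 had it after 30 min of TNFα but not in vehicle (12.1%). The FOSL1 count depended on the overlap asked for: 5 sites had FOSL1 over at least 0.5 of the RELA peak (42.5% of regions) and 3 had summits within 100 bp (32.4%). The fold enrichment at 30 min, which is the pile-up at the summit over the local background, ran from 3.36 to 18.9 over the 13 sites with a median of 6.96, beside a median of 5.93 over the whole list. Where a site was in several lists, the summits lay 7 to 65 bp apart.

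**Figure D3:**
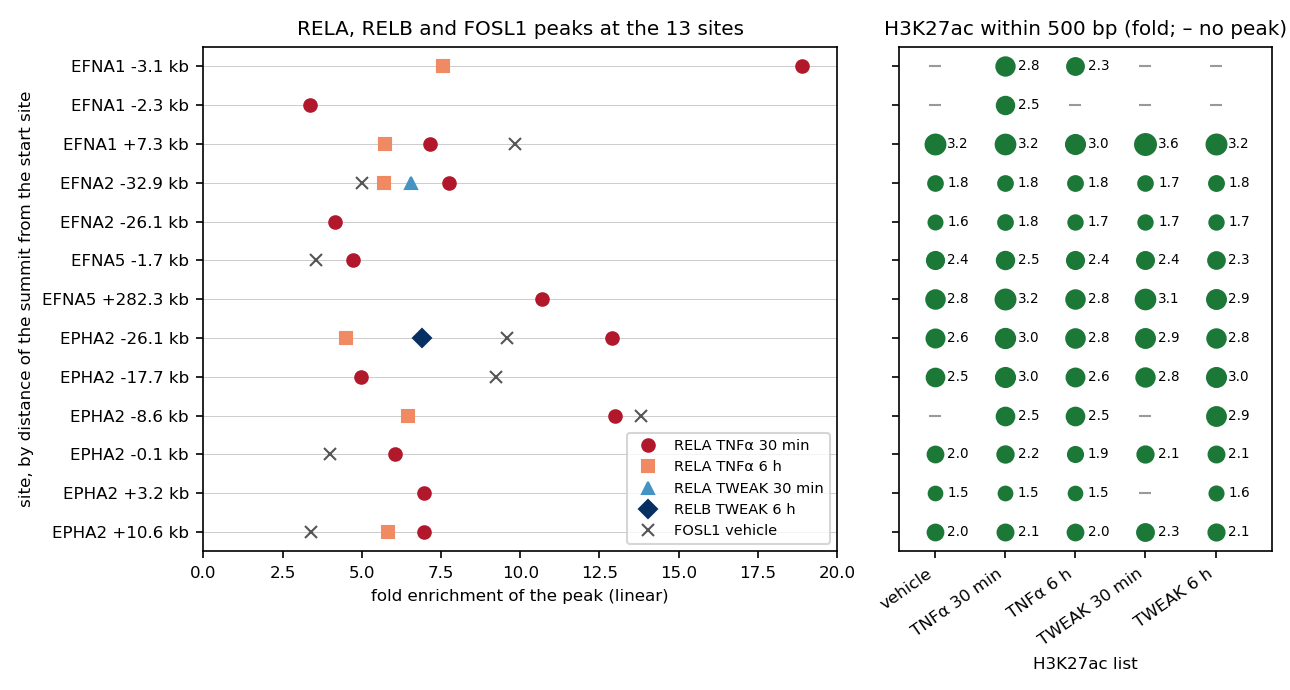
Fold enrichment of the RELA, RELB and FOSL1 peaks (left, linear axis) and of the H3K27ac peaks within 500 bp of the RELA summit (right, dot area and printed value, a dash where no peak was called) at the 13 sites, named by gene and distance of the summit from its start site. The EFNA1 site 3.09 kb upstream is the highest RELA site (18.9), and it, the site beside it and the EPHA2 site 8.55 kb upstream have no H3K27ac in vehicle.

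EFNA1 encodes the ligand first found as a TNFα-inducible product of endothelial cells and is a ligand of EPHA2. Its window held the highest RELA peak of the group, at chr1:155124563-155124971, between genes and with its summit 3090 bp upstream of the EFNA1 start site. The fold enrichment there was 18.9 at 30 min of TNFα, rank 149 of 11266, and 7.57 at 6 h, rank 1868 of 7294. The site was in none of the other 8 RELA and RELB lists. A second, weak RELA peak (fold 3.36, among the lowest of the list at rank 11039) lay at chr1:155125516-155125648, with the summit 2327 bp upstream, and was listed at 30 min of TNFα alone.

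Neither upstream site overlapped FOSL1, and neither had H3K27ac within 500 bp in vehicle or after TWEAK at either time. After 30 min of TNFα, 3 separate H3K27ac peaks appeared there, at chr1:155123984-155124545 (fold 2.75), chr1:155124900-155125462 (2.48) and chr1:155125723-155125982 (1.71). The RELA summits fell into the gaps between them: the strong summit lay 241 bp from the first and 114 bp from the second, and the weak summit 87 bp from the second and 174 bp from the third. After 6 h of TNFα the first of the 3 was still called (fold 2.31), and the others were not. Over the 6 genes, 8 merged H3K27ac sites were called after TNFα at 30 min or 6 h but neither in vehicle nor after TWEAK, and these were 3 of them. Among all merged H3K27ac sites the share of this kind was 13.3%, so 8 of 78 is not a high count for the group.

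At the EFNA1 start site itself, H3K27ac was called in all 5 lists. The fold was 2.99 in vehicle, 1.95 and 2.38 after 30 min and 6 h of TNFα, and 2.77 and 3.14 after 30 min and 6 h of TWEAK, so that the value of 30 min of TNFα was the lowest of the 5. A further peak inside the gene (chr1:155128919-155130263) was called in vehicle (2.44), after 6 h of TNFα (1.99) and after TWEAK at 30 min (2.19) and 6 h (2.26), and was not called after 30 min of TNFα. RELA and FOSL1 had no peak within 1 kb of the EFNA1 start site in any list.

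The third RELA site of the window, at chr1:155135103-155135299, lay just past the end of EFNA1 and 147 bp upstream of the start site of its neighbour SLC50A1, a sugar transporter gene. RELA was listed there at 30 min (fold 7.14) and 6 h (5.74) of TNFα. This site differed from the upstream pair in already being occupied: FOSL1 had its highest peak of the ligand cluster here (9.83, summit 10 bp from that of RELA), and H3K27ac was called in all 5 lists, with folds of 3.23 in vehicle, 3.17 and 2.97 after TNFα and 3.58 and 3.25 after TWEAK. It also held the single AP-1 word of the 13 sites, TGAGTCA, 19 bp from the summit.

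**Figure D4:**
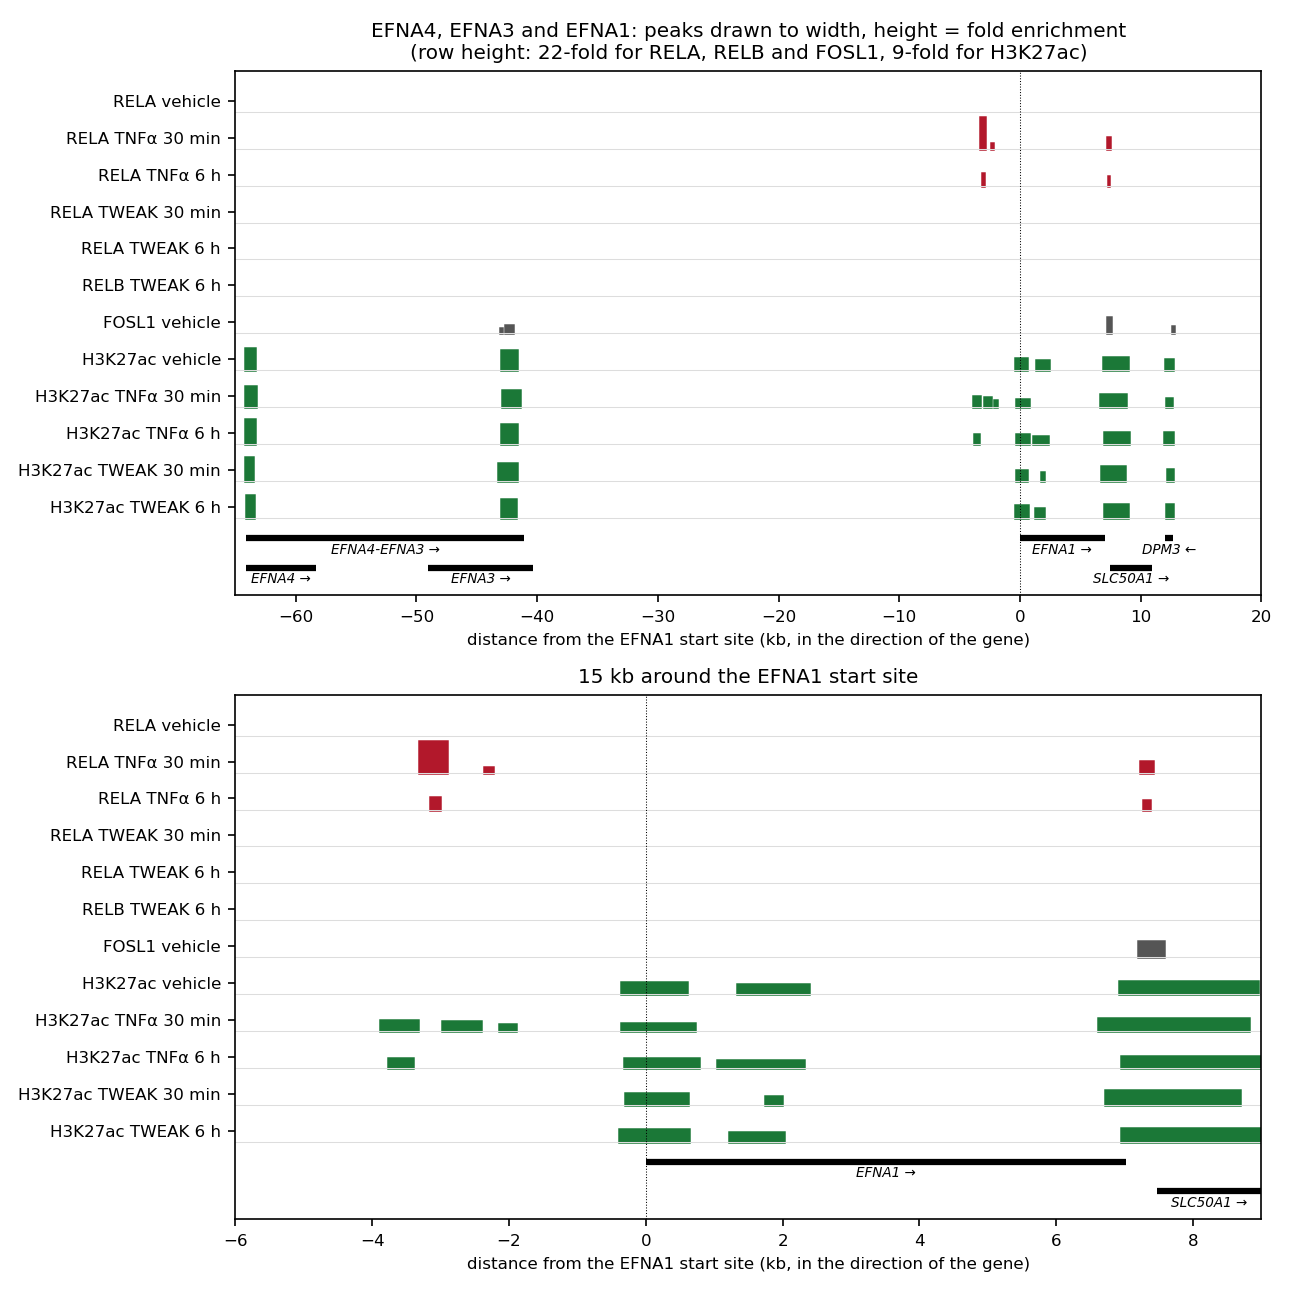
Peaks at EFNA4, EFNA3 and EFNA1 (top) and in 15 kb around the EFNA1 start site (bottom), by distance from that start site in kb, 1 row per list, each peak drawn to its width with the height giving the fold enrichment on the scale in the title, and gene bodies as black bars. RELA peaks stand upstream and at the end of EFNA1 and none at EFNA4 or EFNA3. The H3K27ac peaks within 500 bp of the upstream RELA summits are in the TNFα rows alone.

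EFNA3 and EFNA4 had no RELA peak of their own. The 3 peaks in the EFNA3 window were those of EFNA1, the strong one 45949 bp downstream of the EFNA3 start site, and the EFNA4 window ended short of it, since it lay 55010 bp from the gene. No RELA or RELB list had a peak whose nearest start site was that of EFNA3 or EFNA4. H3K27ac marked the EFNA4 start site in every list, with folds of 5.3 in vehicle, 5.05 and 6.01 after TNFα and 5.82 and 5.63 after TWEAK. The EFNA3 start site had no H3K27ac peak within 1 kb in any list.

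EFNA2 encodes a ligand known mainly from the nervous system. Both RELA sites of its window lay nearer to other genes. The stronger, chr19:1252665-1253163, was in intron 4 of MIDN, a gene for a protein that carries nuclear proteins to the proteasome, 32.9 kb upstream of the EFNA2 start site. It was the one site of the 13 that RELA occupied after both TNFα and TWEAK, with folds of 7.76 and 5.71 after 30 min and 6 h of TNFα and 6.56 after 30 min of TWEAK, and it overlapped FOSL1 (fold 5). H3K27ac covered it in all 5 lists at low fold (1.74 to 1.8). The weaker site, chr19:1259692-1259847, had a fold of 4.15 at 30 min of TNFα alone and lay 372 bp past the annotated start of CIRBP, a cold-inducible RNA-binding protein gene, with 3 matches to the NF-κB consensus from 7 to 42 bp from the summit and no FOSL1.

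At the EFNA2 start site, H3K27ac was called within 1 kb in vehicle (fold 2.77), after 6 h of TNFα (2.55) and after 6 h of TWEAK (3.6), and in neither list of 30 min. A peak centred 5.34 kb downstream, chr19:1290812-1291606, was called after 30 min of TNFα (3.45) and after TWEAK at 30 min (2.58) and 6 h (2.55), and not in vehicle.

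EFNA5 encodes a ligand of broad receptor range. Its window was the longest of the 6 and, with 0.508 RELA peaks per 100 kb at 30 min of TNFα, the most sparsely bound of the 5 that held any. The stronger site, chr5:107388459-107388746, lay in intron 2, 282 kb downstream of the start site and nearer to the 3′ end of the gene. Its RELA fold was 10.7, rank 1436 of 11266, at 30 min of TNFα, and it was in no other RELA or RELB list. H3K27ac covered it in all 5 lists, with folds of 2.8 in vehicle, 3.24 and 2.79 after 30 min and 6 h of TNFα and 3.15 and 2.93 after 30 min and 6 h of TWEAK, and FOSL1 did not overlap it. The weaker site, chr5:107672505-107672633, had a RELA fold of 4.73, 1.65 kb upstream of the start site, and touched a FOSL1 peak of fold 3.55 by its edge, the summits being 128 bp apart. H3K27ac flanked this summit on both sides in all 5 lists, with folds between 2.27 and 2.47 on the side away from the gene and between 1.88 and 2.01 for the peak over the start site.

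The EFNA5 start site had H3K27ac of low fold in every list (1.88 to 2.01). FOSL1 was frequent in the window, with 20 peaks, or 5.08 per 100 kb, which lay between the values of EFNA3 (4.6) and EFNA4 (4.73) and those of EFNA1 (5.61), EFNA2 (8.65) and EPHA2 (9.11), with a median over all genes of 2.7. One of the 20 overlapped RELA.

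EPHA2, the receptor, had the most RELA sites of the group, 6 at 30 min of TNFα or 4.55 per 100 kb, and each of them had the EPHA2 start site as its nearest. At 6 h, 3 stayed listed. The sites lay upstream of the gene, at the promoter and in introns 1 and 3. FOSL1 overlapped 5 of the 6, and 5 had H3K27ac within 500 bp in vehicle.

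The strongest EPHA2 site, chr1:16164441-16164780, had its summit 8553 bp upstream of the start site. RELA reached a fold of 13 at 30 min of TNFα, rank 818 of 11266, and 6.47 at 6 h, rank 2724 of 7294. FOSL1 had a fold of 13.8 beside it, rank 2167 of 58864 and the highest FOSL1 peak of any of the 6 windows, with its summit 295 bp from that of RELA, so that the peaks met at their edges. H3K27ac was not called within 500 bp in vehicle or after 30 min of TWEAK. It was called to one side of the RELA summit, at a distance of 64 bp in the list of 30 min of TNFα, after 30 min and 6 h of TNFα (fold 2.55 in both) and after 6 h of TWEAK (2.9), the last without RELA or RELB in the lists of that condition.

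The second strong site, chr1:16182036-16182341, lay 26129 bp upstream. Its RELA fold was 12.9 at 30 min of TNFα and 4.5 at 6 h, and it was the one site of the 13 with RELB, at a fold of 6.9 after 6 h of TWEAK, rank 1496 of 4052. The RELB summit lay 48 bp from the RELA summit. FOSL1 (9.57) overlapped it and H3K27ac covered it in all 5 lists, with folds of 2.64 in vehicle, 3.03 and 2.82 after TNFα and 2.92 and 2.77 after TWEAK. RELA, RELB, FOSL1 and H3K27ac were thus all listed here, and unlike the site 8553 bp upstream it had H3K27ac before treatment.

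The other 4 EPHA2 sites were nearer to the middle of the RELA list or below it. The site 17733 bp upstream (chr1:16173436-16173881) had a RELA fold of 4.98 at 30 min of TNFα alone, on a FOSL1 peak of 9.24 and H3K27ac in all 5 lists. The site 10.6 kb downstream in intron 3 (chr1:16145345-16145559) had folds of 6.95 and 5.83 at 30 min and 6 h of TNFα and met a weak FOSL1 peak (3.38). The site 3.18 kb downstream in intron 1 (chr1:16152738-16152964) had a fold of 6.96 at 30 min of TNFα alone, no FOSL1, and faint H3K27ac (1.51 to 1.61) in every list but that of 30 min of TWEAK. It held the NF-κB consensus 8 bp from the summit.

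The sixth site was the EPHA2 promoter, the one case of RELA within 1 kb of the start site of any of the 6 genes. The peak, chr1:16156069-16156221, had its summit 53 bp upstream of the start site, also inside the antisense gene EPHA2-AS1, and a fold of 6.04 at 30 min of TNFα alone. FOSL1 had a peak of fold 4 there. H3K27ac was called within 500 bp of the summit in all 5 lists, with folds of 2.03 in vehicle, 2.18 and 1.86 after TNFα and 2.15 and 2.06 after TWEAK. After 30 min of TNFα the summit lay in a gap between 2 H3K27ac peaks, 115 bp and 128 bp from them, while after 30 min of TWEAK 1 peak of 2401 bp ran across the start site. The 250 bases before the start site, from RefSeq (GRCh38.p14, the same build), are shown because they hold the whole RELA peak but its first base, with the TEAD word on the reverse strand in capitals. It held no NF-κB consensus and no GGAATTTCC.

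EPHA2 promoter, hg38 chr1:16156070-16156319, minus strand: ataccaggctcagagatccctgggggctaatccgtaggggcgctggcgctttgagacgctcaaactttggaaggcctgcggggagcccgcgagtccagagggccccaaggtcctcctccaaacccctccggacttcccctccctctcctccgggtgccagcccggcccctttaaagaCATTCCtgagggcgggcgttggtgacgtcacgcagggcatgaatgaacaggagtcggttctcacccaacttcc

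**Figure D5:**
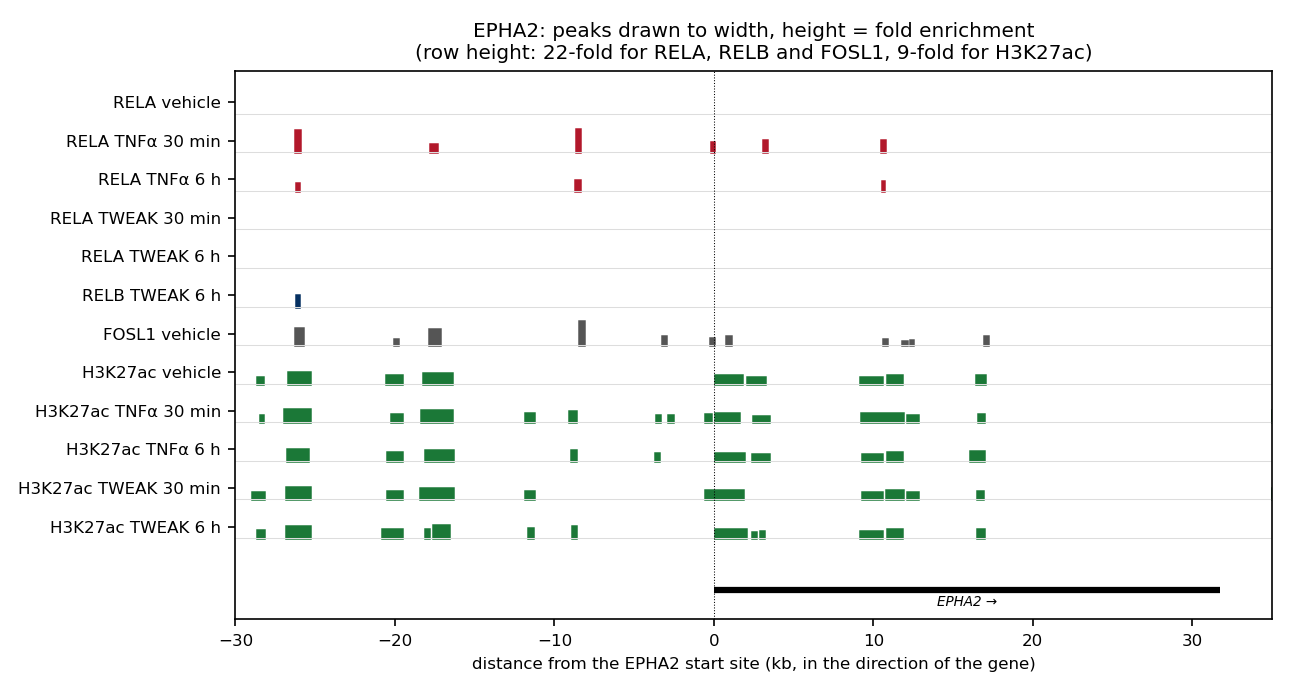
Peaks around the EPHA2 start site by distance in kb in the direction of the gene, 1 row per list, each peak drawn to its width with the height giving the fold enrichment on the scale in the title, and the gene body as a black bar. The 6 RELA sites of 30 min of TNFα spread from 26.1 kb upstream to 10.6 kb downstream, 3 remain at 6 h, the 1 RELB peak stands at the most upstream site, and the RELA rows of vehicle and TWEAK are empty.

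FOSL1 occupied all 6 windows in vehicle, as it did those of 90.6% of genes. EPHA2 had 12 FOSL1 peaks and 5 of them overlapped RELA at 30 min of TNFα, whereas 1 of 9 did at the EFNA4, EFNA3 and EFNA1 cluster, 1 of 10 at EFNA2 and 1 of 20 at EFNA5, beside 11.0% of all FOSL1 regions. The sites without FOSL1 were the upstream pair of EFNA1, the site in EFNA5, the site at CIRBP and the one in intron 1 of EPHA2.

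H3K27ac was called in all 6 windows in every condition, as in those of 91.5% of genes in vehicle, 90.2% and 91.5% after 30 min and 6 h of TNFα, and 90.6% and 91.1% after 30 min and 6 h of TWEAK. Peaks of the 5 lists merged into 78 sites over the 4 loci, of which 44 were in all 5 lists (44.2% of all merged H3K27ac sites) and 14 in 1 list (27.2%). At 30 min of TNFα, 13 of the 78 were present that vehicle lacked (11.5% of all merged H3K27ac sites) and 10 were missing that vehicle had (19.0%). In the list of 6 h of TNFα, 5 appeared (12.0% of all sites) and 6 disappeared (10.8%). In the list of 30 min of TWEAK, 12 appeared (11.3%) and 8 disappeared (16.8%). In that of 6 h of TWEAK, 4 appeared (7.90%) and 6 disappeared (13.6%). EPHA2 had the most H3K27ac sites that appeared at 30 min of TNFα, 6 of its 20, against 1 that disappeared. Of these 6, 4 were also called after TWEAK at 30 min or 6 h. EFNA5 had the most that disappeared at 30 min of TNFα, 5 of its 28, against 2 that appeared. It also lost 5 at 6 h of TNFα and 5 at 6 h of TWEAK. EFNA5 held the most merged sites of the 4 loci, and 5 of 28 is near the 19.0% lost over all sites at 30 min of TNFα. The H3K27ac lists covered different lengths of the genome, from 45.1 Mb at 30 min of TNFα to 55.5 Mb in vehicle and at 6 h of TNFα, and the part of this in the gains and losses was not tested. Between vehicle and 30 min of TNFα, the covered length was greater at EPHA2 (11.6 and 13.8 kb), EFNA1 (7.1 and 7.79 kb) and EFNA3 (9.1 and 9.22 kb) and smaller at EFNA2 (14.3 and 13.4 kb), EFNA4 (6.53 and 5.88 kb) and EFNA5 (26.4 and 24.3 kb).

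The other genes of the pathway were read in the same way. Of the 13 other Eph receptor genes, none had a RELA or RELB peak in any of the 10 lists. For comparison, 48.1% of all genes had RELA at 30 min of TNFα. Of the 13, 12 had FOSL1 (90.6% of all genes) and 12 had H3K27ac in vehicle (91.5%). Some windows were sparse and others were not. EPHA6 had 2 FOSL1 and 4 vehicle H3K27ac peaks in 1047 kb, and EPHB4 had 9 and 7 in 125 kb. Among the Eph receptor genes read here, EPHA2 alone had RELA or RELB in its window. Among the 3 ephrin B ligand genes, EFNB3 had 1 RELA peak at 30 min of TNFα (fold 20.7), and its window also held 1 in vehicle (10.5), after 6 h of TNFα (16) and after TWEAK at 30 min (14.8) and 6 h (5.59), with RELB in vehicle (5.37) and after 6 h of TWEAK (11.1). The summit at 30 min of TNFα lay 17.7 kb upstream of EFNB3 and nearer to another gene. EFNB2 had a RELA peak at 6 h of TNFα alone (4.67), and EFNB1 had none.

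Of 12 genes for proteins that process ephrins or act downstream of Eph receptors, 7 had a RELA peak at 30 min of TNFα, a share near that of all genes (48.1%). NCK1, an adaptor, had 6 (best fold 18.5) and VAV2, a guanine nucleotide exchange factor, had 6 (17), and both also had RELA in vehicle and RELB after 6 h of TWEAK. RIN1, a Ras effector, had 2 (11.1). ADAM10 (5.02), a protease that sheds ephrins, INPPL1 (5.04), a lipid phosphatase, GRB2 (4.26), an adaptor, and CHN1 (4.62) had 1 each. The best peak had the gene's own start site as its nearest in 1 of the 7, NCK1, and the others lay nearer to another gene, so their assignment rests on the window alone. NGEF, VAV3, TIAM1, ACP1 and PTPN11 had none.

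The genes whose peak pattern was most like that of EFNA1 over the 16 lists were COIL, TRIM25, PFKFB4, CCL17 and CIAPIN1. Likeness was the Euclidean distance between the best folds in the window, as log2(1 + fold), and was 0.385 for COIL and 0.589 for CCL17 and CIAPIN1, where the median over 19967 genes was 5.39. COIL and TRIM25 have the same best RELA peaks (20.3 at 30 min and 7.92 at 6 h of TNFα), as do CCL17 and CIAPIN1 (14.1 and 8.03), so these 5 names stand for 3 loci. For EPHA2 they were ENO4 (0.638), FOXP1 (0.681), VSIR (0.681), PDE4D (0.687) and SLMAP (0.688), against a median of 5.7. All 5 had RELB after 6 h of TWEAK as EPHA2 did, with best folds between 6.14 and 7.22. That list was among the 16 by which they were picked, so the shared RELB is part of the likeness and not a further result. They held from 1 to 7 RELA peaks at 30 min of TNFα.

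Just beyond the windows, the nearest further RELA peak of 30 min of TNFα lay 58.4 kb from EFNA1, 563 bp upstream of the MUC1 start site (fold 12.4), 102 kb from EFNA2 (11.7), 138 kb from EPHA2 (9.53) and 947 kb from EFNA5 (7.81). The nearest further RELB peak of 6 h of TWEAK lay 102 kb from EFNA2 (9.51), 325 kb from EPHA2 (10.6) and 332 kb from EFNA1 (5.43).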

How the data were processed

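ChIP-seq peaks of RELA, RELB and H3K27ac (5 conditions each) and FOSL1 (vehicle) were analysed in L3.6pl cells. The submitters' processing notes name Bowtie2 2.5.0, SAMtools 1.18, deepTools 3.3.2 and MACS2 (version not given), reads were mapped to hg38, and peaks were called against input. RELA was precipitated with protein G beads and the others with protein A beads. Column 7 of each list, as deposited, is the fold enrichment, a ratio over the local background, and column 9 is the −log10 q-value that the authors' caller gave. The lowest −log10 q was 1.31 in the RELA and RELB lists and 1.01 in the H3K27ac lists. Each condition has 1 deposited list, so nothing could be tested, and which replicates the RELA list of 30 min of TNFα holds is not settled. Fold is compared between lists only as listed values and ranks. Values of p and scores in 16 lists were not used.

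Genes are the 20007 protein-coding genes of GENCODE 44. Peaks sharing at least 1 bp with the gene body plus 50 kb were counted (Python 3.11.15, pandas 2.3.3, pysam 0.24.0), and all 96 counts equalled those of bedtools 2.31.1. Overlapping RELA and RELB peaks were merged into sites. H3K27ac counted within 500 bp of a summit. A site was placed in a tandem repeat if the best self-match of 1000 bp around it reached 0.4 over shifts of up to 400 bp. Motifs (the NF-κB consensus by name, the AP-1 word TGANTCA, the TEAD word GGAATG and the added word GGAATTTCC, which can lie inside the consensus) were searched on both strands within 100 bases of summits. All 6 genes are named, with every site in the RELA list of 30 min of TNFα or in a RELB list, pathway genes from fixed lists if they had such a RELA peak (some of those without one are also named, as having none), and the 5 most similar genes of EFNA1 and EPHA2 outside the windows. The repeated word, the RELB site's sequence and the promoter sequence were picked after values were seen. The genes and lists were chosen with earlier results of these data known. Code was tested on simulated peaks. Alternative windows, thresholds, overlaps and assignments were tried.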

Additional observations from a re-analysis of the deposited data

How the results depend on the processing

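Of 65 values recomputed for 8 results under 12 alternatives, 48 stayed within 1.5 times of the reported value and 17 did not. With the gene body alone, the RELA sites of 30 min of TNFα numbered 4 in place of 13, all 4 absent from vehicle. The genes with such a site then went from 5 to 2 (EPHA2 and EFNA5), RELB peaks from 1 to 0 and RELA sites shared with RELB to 0, sites with FOSL1 to 2, sites with H3K27ac in vehicle to 4 and those with H3K27ac at 30 min of TNFα but not in vehicle to 0. With windows of 10 kb, 3 genes held a RELA site. Of the 9 sites then counted, 5 had FOSL1 and 6 had H3K27ac in vehicle, and the RELB peak and the site shared with it were outside (0 and 0). By the nearest start site, 3 genes held a RELA site (EFNA1, EFNA5 and EPHA2). The FOSL1 count of 8 was 3 of 9 with a fold of at least 5, 5 with an overlap of at least 0.5 of the RELA peak and 3 with summits within 100 bp. These settings admit fewer bases or peaks, ask for a closer overlap or assign peaks by another rule. No direction is reversed, since none was tested. No paired analysis was possible because each condition has 1 list. For the same reason no replicate could be left out, and the read depth that limits each list is unknown.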
